A study of Mus musculus with 8 samples.

Results

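Calmodulin-linked signaling genes were described in TN SST neurons, the somatostatin neurons of the tuberal nucleus of the hypothalamus, of 4 female and 4 male mice. The 10 genes are *Nrgn* and *Pcp4*, which encode small calmodulin-binding proteins, the kinase genes *Camk2a*, *Camk2b*, *Camk2d* and *Camk4*, the phosphatase gene *Ppp3ca*, and the phosphodiesterase genes *Pde1a*, *Pde1b* and *Pde1c*, out of 35968 genes with a matched transcript. They were chosen by name with the comparison of the sexes already known, in which *Nrgn* and *Pde1a* had passed the test, so their sex differences are given as a description and carry no test of their own. In Flow-Seq, living cells are labeled in the mouse, sorted by fluorescence and sequenced in bulk. Both groups were Ssttm2.1(cre)Zjh/J heterozygotes (*Sst-Cre*) that received AAV2-flex-tdTomato in the TN, and sex is the one difference between them that the labels give. Cre was expressed from the *Sst* locus, so that red fluorescence marked cells using that locus, and the cells of a mouse were pooled into 1 library. The labels do not give the age of the mice or the estrous stage of the females.

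Calmodulin is the main calcium sensor inside neurons: when calcium enters, it binds calmodulin, which then switches on a set of partner enzymes. CaMKII and CaMKIV are kinases that add phosphate groups to receptors, channels and transcription regulators, calcineurin is a phosphatase that removes them, and PDE1 enzymes break down cyclic AMP and cyclic GMP when calcium is high. Neurogranin, the product of *Nrgn*, and PCP4 bind calmodulin through an IQ motif and set how much of it is free and how quickly it takes up calcium.

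Coding stretches of some of these genes are shown first, beginning with the IQ motif through which neurogranin and PCP4 bind calmodulin. Each stretch was read from the GENCODE M21 coding transcript (mm10) with the most counts of its gene, and the IQ motif was located by translating it. Capitals mark the 11 codons of the IQ motif, with 3 codons in lower case on either side, 51 bases in all. For *Nrgn* the stretch lies in exon 2 at chr9:37546052-37546102 on the - strand (codons 30 to 46 of 78). For *Pcp4* it lies in exon 3 at chr16:96525455-96525505 on the + strand (codons 43 to 59 of 62). *Pcp4l1*, which encodes the related protein PCP4-like 1, is not among the 10 genes and is shown for comparison, at chr1:171174395-171174445 on the - strand.
Nrgn: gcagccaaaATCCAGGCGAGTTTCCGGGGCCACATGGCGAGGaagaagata
Pcp4: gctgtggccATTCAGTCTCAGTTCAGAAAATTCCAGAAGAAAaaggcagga
Pcp4l1: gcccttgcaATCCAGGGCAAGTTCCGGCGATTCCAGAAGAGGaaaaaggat

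*Nrgn* and *Pcp4* shared 21 of the 51 bases, and 6 of the 17 codons encoded the same amino acid. Between *Pcp4* and *Pcp4l1* the stretches shared 30 bases and 10 amino acids. Among the kinases, the autophosphorylation segment was compared, since phosphate on its threonine lets CaMKII stay active after calmodulin has left. Capitals mark the 4 codons that end with that threonine, within codons 280 to 295. The whole stretch lies in exon 11 in each of the genes shown (*Camk2b* at chr11:5988973-5989020 on the - strand, *Camk2d* at chr3:126797720-126797767 on the + strand and, for comparison, *Camk2g* at chr14:20760415-20760462 on the - strand).
Camk2b: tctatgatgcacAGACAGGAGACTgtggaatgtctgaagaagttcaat
Camk2d: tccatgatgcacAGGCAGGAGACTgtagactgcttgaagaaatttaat
Camk2g: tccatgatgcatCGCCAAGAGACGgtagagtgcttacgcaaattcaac

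*Camk2b* and *Camk2d* shared 40 of these 48 bases and encoded the same amino acid in 15 of 16 codons. Kallisto divides a read that could come from several transcripts among them. How many reads of these related kinases were divided between genes was not measured. RefSeq promoter windows (GRCm38.p6, the build of mm10), each with 250 bases before and 50 after a transcription start, were matched to 7 of the 10 genes, with 14 windows. The part upstream of the RefSeq start is shown for *Nrgn* and *Pde1a*, as these are the 2 genes that were called. For *Pde1a* it is the window closest to the transcript Pde1a-210, which is annotated as a target of nonsense-mediated decay. *Nrgn* is shown from chr9:37552746-37552995 and *Pde1a* from chr2:80128972-80129221, both on the - strand. The *Nrgn* stretch runs into the gene as GENCODE annotates it, which reaches 37552904. No GENCODE transcript start was matched to that window. Capitals mark GGGCGG or its reverse complement CCGCCC, the GC box, and would also mark TGACG or CGTCA, the shorter form of the cyclic AMP response element.
Nrgn: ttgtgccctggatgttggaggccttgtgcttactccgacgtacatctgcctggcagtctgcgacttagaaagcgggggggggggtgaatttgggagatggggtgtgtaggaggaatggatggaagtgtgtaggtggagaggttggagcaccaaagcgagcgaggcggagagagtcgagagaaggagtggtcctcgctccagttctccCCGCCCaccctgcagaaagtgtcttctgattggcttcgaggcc
Pde1a: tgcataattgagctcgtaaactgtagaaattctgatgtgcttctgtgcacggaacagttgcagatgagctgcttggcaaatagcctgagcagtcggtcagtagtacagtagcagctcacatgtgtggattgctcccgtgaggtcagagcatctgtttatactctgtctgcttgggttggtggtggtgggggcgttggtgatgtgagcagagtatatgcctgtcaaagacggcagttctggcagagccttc

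The full response element TGACGTCA, which contains both of these, was in 0 of the 14 windows and in 1.79% of all 32851 windows of the same length. The shorter form on either strand was in 1 of the 14, another window of *Pde1a*, against 20.8% of all windows, and the GC box in 4 of the 14 (1 each of *Nrgn*, *Camk2b*, *Camk2d* and *Pde1b*), against 35.7% of all windows. These are matches of letters and not sites of binding.

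Estimated counts summed to between 7.83 and 17.6 per mouse, in units of 1000000, and 15194 genes had enough counts to be tested. The 10 genes were all among them, with between 108 counts (*Pde1c* in male 2) and 11878 counts (*Camk2b* in female 3) per mouse. A count of 3, taken as the limit of detection, corresponded to 0.148 to 0.458 CPM (counts scaled to a library of 1000000), and this limit covers counting error only. The labelled cell type was present in the markers, with *Sst* at no less than 897.5 TPM (transcripts per 1000000, scaled per length) in any mouse. Markers of other cells were also detected, and their levels are given beside the results. In bulk RNA, fewer cells of a type and less RNA per cell cannot be told apart. No source used here says that the mice were other than separate animals, 1 library each.

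Levels were compared between genes as TPM, which is scaled per length. *Nrgn* was the highest of the 10 genes at 444 ± 234 TPM (SD, n = 8 mice) and ranked 203 among the 25276 genes with counts, followed by *Ppp3ca* at 290 ± 85.7, *Pcp4* at 273 ± 49.0, *Camk2b* at 241 ± 44.6, *Camk2a* at 186 ± 45.8 and *Camk2d* at 174 ± 13.6 TPM. A step lower stood *Pde1a* at 81.7 ± 38.1 TPM and *Pde1b* at 52.3 ± 19.6 TPM, and lowest *Camk4* at 20.4 ± 4.92 TPM and *Pde1c* at 10.9 ± 6.39 TPM. The SD spans both sexes, so it holds the sex difference as well. Of the 45 pairs of genes, 41 differed in level (exact sign-flip permutation test over the 8 mice on log2(TPM + 0.1), 2-sided, Benjamini-Hochberg adjusted p between 0.00950 and 0.0257). Among neighbours in this order, *Ppp3ca* and *Pcp4* (adjusted p = 0.703, exact permutation test), *Pcp4* and *Camk2b* (adjusted p = 0.0670, same exact test) and *Camk2a* and *Camk2d* (adjusted p = 0.671, same exact test) did not differ beyond their spread. The remaining pair, *Nrgn* and *Pcp4*, did not differ beyond its spread either: *Nrgn* was higher in the 4 females and male 4, 5 of the 8 mice (adjusted p = 0.114, exact permutation test).

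**Figure D1:**
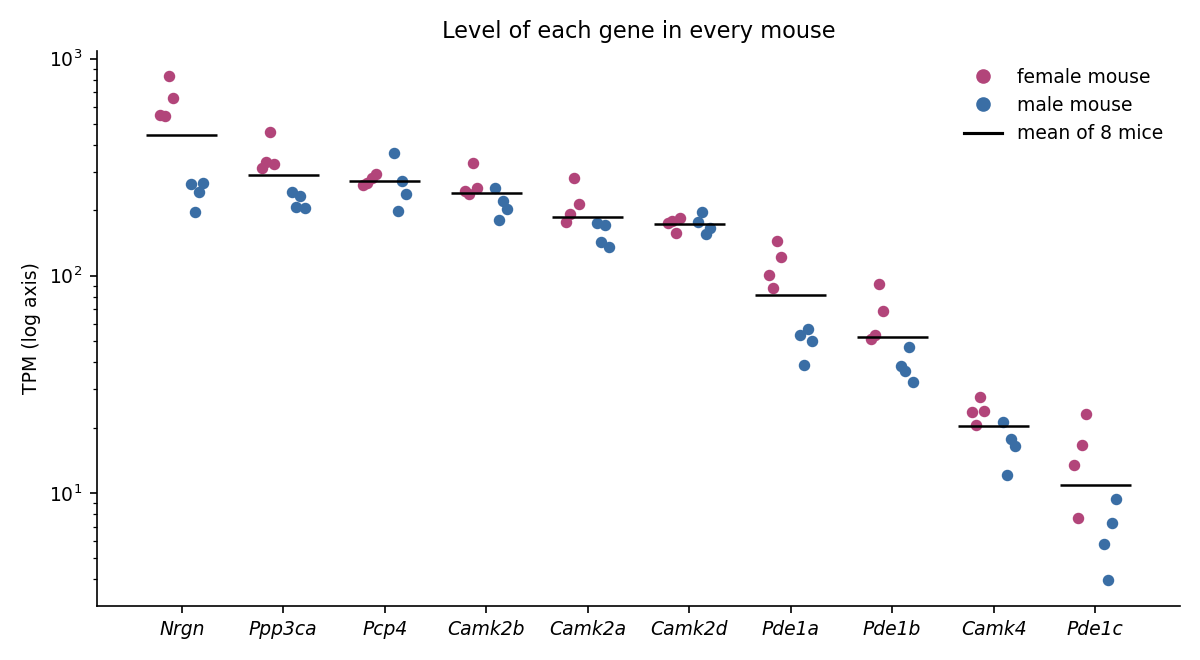
Level of each of the 10 genes in every mouse, in TPM on a log axis, with females and males as separate points and the mean of 8 mice as a line. The order runs from *Nrgn* at a mean of 444 TPM to *Pde1c* at 10.9 TPM, and the points of the sexes lie apart for *Nrgn*, *Ppp3ca*, *Pde1a*, *Pde1b* and, by under 1 TPM (176.2 against 175.4), *Camk2a*.

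A part of some levels came from transcripts that are not annotated as coding. With protein-coding transcripts alone, a comparison added after seeing the data, *Ppp3ca* had 191 TPM, *Camk2d* 69.8 TPM and *Camk4* 7.83 TPM. *Ppp3ca* then ranked 4 instead of 2, below *Pcp4* and *Camk2b*, *Camk4* ranked 10 instead of 9, below *Pde1c*, and *Camk2d* kept rank 6. In male 4, *Nrgn* was at 1.11 times *Pcp4* over all transcripts and at 0.931 times with coding transcripts alone. On coding transcripts *Nrgn* lay above *Pcp4* in every female and below it in every male. Non-coding models such as retained introns can be short and so weigh more per length than per count: coding transcripts held 70.7% of the counts but 40.2% of the TPM of *Camk2d*.

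Between the sexes, 9 of the 10 genes had a higher fitted level in females, and *Pcp4* a lower one. Over all genes tested, 49.4% had a log2 fold change above 0. In 6 of the 10 every female lay above every male in CPM (*Nrgn*, *Camk2d*, *Ppp3ca*, *Pde1a*, *Pde1b* and *Pde1c*), as in 6.48% of all genes tested. *Nrgn* and *Pde1a* were past an adjusted p of 0.05 in females (edgeR's quasi-likelihood test), as 0.112% of all genes tested were, and 0 of the 10 were past it in the other direction, as 0.0461% were. The genes were chosen with these calls known, so nothing is read from the counts. The median log2 fold change of the 10 was 0.46, beside -0.0043 over all genes tested. DESeq2's Wald test placed 6 of the 10 past its threshold, adding *Camk2a*, *Ppp3ca*, *Pde1b* and *Pde1c*, all higher in females, as it placed 3.86% of all genes tested in that direction. With edgeR the number rested on single mice: it was 3, with *Ppp3ca* added, without female 1 or without male 1, and 1, *Nrgn*, without female 2, female 3, female 4, male 3 or male 4.

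**Figure D2:**
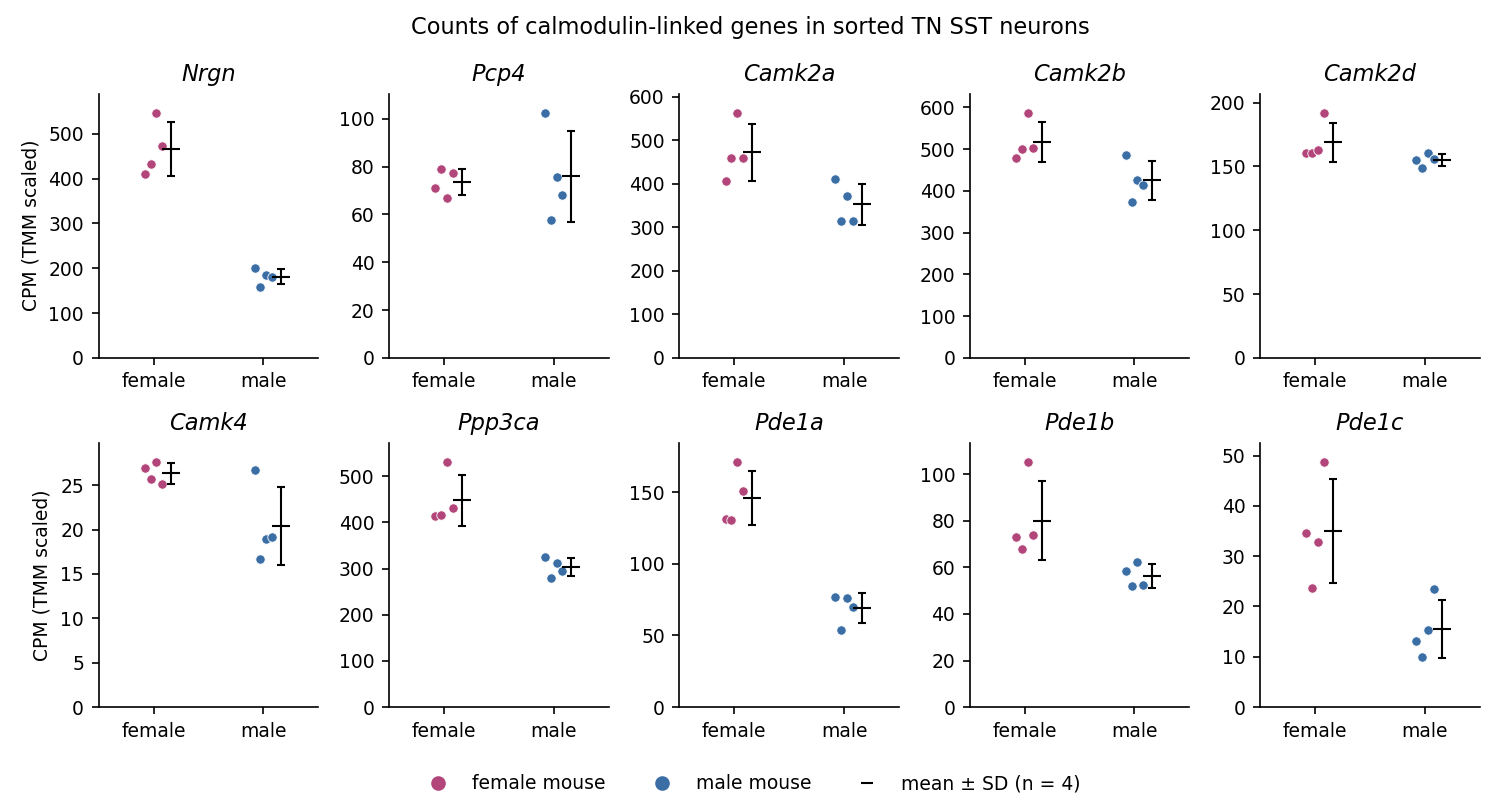
CPM, TMM scaled, of the 10 genes in each mouse, 1 panel per gene with the vertical axis from 0, points for mice and bars for the mean ± SD of 4 mice of a sex. For *Nrgn* the lowest female has 409.9 CPM and the highest male 200.3 CPM, whereas for *Pcp4* the females lie inside the range of the males.

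*Nrgn* (ENSMUSG00000053310.11, chr9:37544492-37552904 on the - strand of mm10) was measured at 409.9, 433, 546 and 474 CPM in females 1 to 4, against 200.3, 159, 184 and 180.5 CPM in males 1 to 4. All 4 females lay above all 4 males, the lowest female at 2.05 times the highest male. The female mean was 466 ± 59.7 and the male mean 181 ± 16.9 CPM (SD, n = 4), for a log2 fold change of 1.36 (SE 0.11) or 2.57-fold. Leaving out any 1 mouse kept this value between 1.28 and 1.42. Neurogranin holds calmodulin near the membrane of dendritic spines when calcium is low, and is best known from principal neurons of the forebrain. Markers of those neurons were at or near 0 here: *Slc17a7*, the vesicular glutamate transporter of cortical excitatory neurons, was at 0 in 7 of the 8 mice, and the 7 telencephalic excitatory markers summed to between 2.24 and 7.15 TPM, beside at least 197 TPM of *Nrgn*.

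*Pcp4* (ENSMUSG00000090223.2, chr16:96467606-96525793 on the + strand) was at 71.0, 79.0, 67.0 and 77.4 CPM in females 1 to 4, against 102, 57.6, 75.8 and 68.1 CPM in males 1 to 4. The groups overlapped, and male 1 was the highest mouse and male 2 the lowest. Its log2 fold change was -0.05 (SE 0.16), and it turned to 0.13 without male 1. PCP4 speeds the exchange of calcium on calmodulin, and it shares with *Nrgn* the IQ motif printed above but not the difference between the sexes. The ratio of *Nrgn* to *Pcp4* in TPM was accordingly 2.33 ± 0.425 in females and 0.929 ± 0.170 in males (SD, n = 4), with no overlap.

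The CaMKII genes were abundant, with smaller fold changes. *Camk2a* (ENSMUSG00000024617.16, chromosome 18 from 60925618 to 60988152, + strand), the alpha subunit, was at 405, 459, 562 and 459.9 CPM in females 1 to 4, against 411, 315, 372 and 314 CPM in males, where male 1 lay above female 1 only. *Camk2b* (ENSMUSG00000057897.14, chr11:5969644-6066362, - strand), the beta subunit that ties the kinase to actin, was at 479, 500.4, 586 and 503 CPM in the females, against 485, 373, 426 and 415 CPM in males, again with male 1 above female 1 only. Their log2 fold changes were 0.42 (SE 0.12) and 0.28 (SE 0.10). The ratio of *Camk2a* to *Camk2b*, in CPM, lay between 0.756 and 0.959 over the 8 mice. The ratio of *Nrgn* to *Camk2a* in CPM also differed, at 0.989 ± 0.0393 for the females and 0.516 ± 0.0403 for the males (SD, n = 4), and the lowest female, at 0.942, lay above the highest male, at 0.575.

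*Camk2d* (ENSMUSG00000053819.16, chr3:126596302-126846326, + strand), the delta subunit found in many tissues, was at 161, 160.4, 163 and 192 CPM in the females, against 155, 149, 160.2 and 155 CPM in males. Its sexes met at 160.4 and 160.2 CPM, so they were separate by a ratio of 1.001 alone, and the log2 fold change was 0.12 (SE 0.08). With an offset for average transcript length it was -0.08. *Camk4* (ENSMUSG00000038128.7, chromosome 18 from 32934931 to 33191228, + strand), the kinase that acts in the nucleus on the transcription factor CREB, was at 27.0, 25.7, 27.6 and 25.1 CPM in the females, against 26.7, 16.7, 18.9 and 19.1 CPM in the males. Male 1 lay inside the range of the females, and the gene had a log2 fold change of 0.37 (SE 0.15).

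*Ppp3ca* (ENSMUSG00000028161.17, chr3:136670124-136937727, + strand), the catalytic alpha subunit of calcineurin, was at 413, 417, 530.5 and 432 CPM in females 1 to 4, against 324, 279, 312 and 296 CPM in males. Every female lay above every male, the lowest female at 1.28 times the highest male. The means were 448 ± 55.4 and 303 ± 19.5 CPM (SD, n = 4), which gave a log2 fold change of 0.57 (SE 0.10) that stayed between 0.47 and 0.60 with each mouse left out.

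All 3 PDE1 genes had a higher mean in females. *Pde1a* (ENSMUSG00000059173.19, chr2:79834453-80129458, - strand), which encodes an enzyme that prefers cyclic GMP, was at 131, 130.4, 171 and 151 CPM in females 1 to 4, against 76.9, 53.7, 75.9 and 70.0 CPM in males 1 to 4. Again the sexes did not overlap, the lowest female being at 1.70 times the highest male. The means were 146 ± 19.1 and 69.1 ± 10.7 CPM (SD, n = 4), which gave a log2 fold change of 1.08 (SE 0.13), between 0.97 and 1.13 with each mouse left out.

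*Pde1b* (ENSMUSG00000022489.6, chr15:103503034-103530052, + strand), the form known from the striatum, was at 73.3, 68.0, 105 and 73.9 CPM in the females, against 58.6, 51.9, 62.3 and 52.3 CPM in the males, with no overlap and a log2 fold change of 0.51 (SE 0.14). *Pde1c* (ENSMUSG00000004347.16, chr6:56069804-56569103, - strand), which cleaves both cyclic nucleotides, was at 34.6, 23.7, 32.9 and 48.7 CPM in the females, against 13.2, 9.90, 15.3 and 23.4 CPM in males. It had a large difference with a wide error, a log2 fold change of 1.19 (SE 0.28), and female 2 and male 4 lay only 1.01-fold apart. Within the family, *Pde1a* made up 58.6% ± 1.92 of the summed TPM in females and 52.4% ± 2.76 in males, and *Pde1b* 33.8% ± 2.69 and 40.7% ± 4.55 (SD, n = 4 each).

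**Figure D3:**
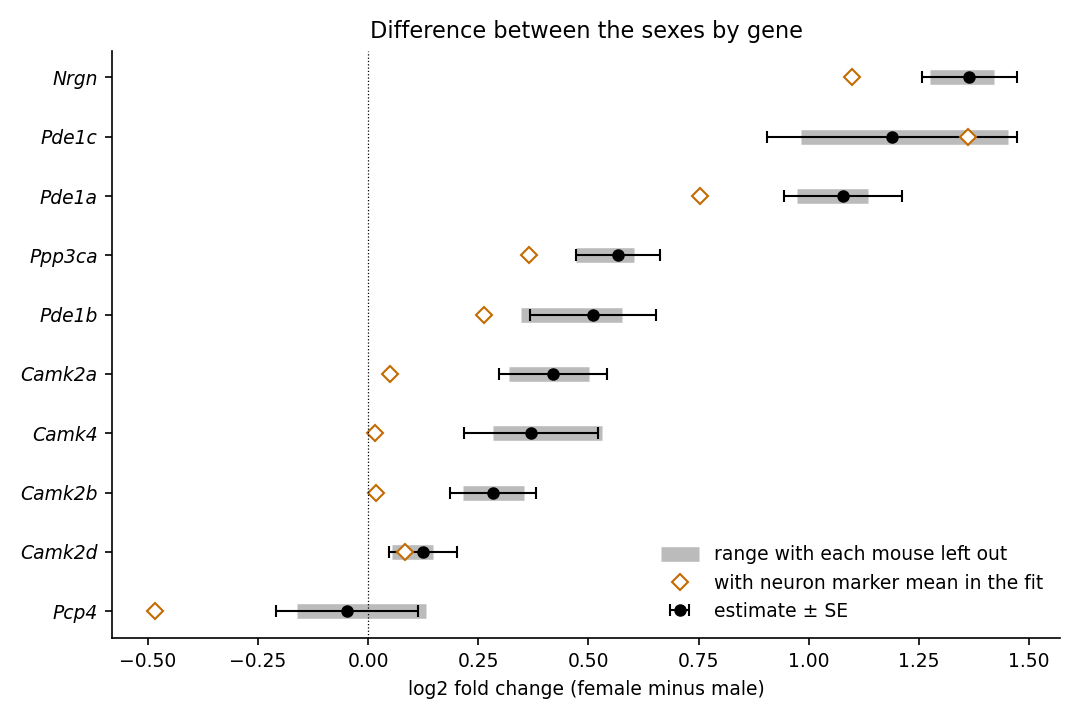
Log2 fold change of each gene (female minus male) with its standard error, the range when each mouse is left out in turn (grey bar), and the value with the mean of 8 neuron markers as a covariate (diamond). *Nrgn* falls from 1.36 to 1.10 and *Pde1a* from 1.08 to 0.75 with the covariate, while *Camk2a*, *Camk2b* and *Camk4* come to between 0.02 and 0.05.

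The sorted RNA also held transcripts of other cells, at levels that differed between mice. All 7 microglial markers had a lower fitted level in females. Of the 7, 0 passed edgeR's adjusted p of 0.05 (0.158% of all genes tested did), 4 were under an unadjusted p of 0.05 (20.5%) and 0 passed in DESeq2 (6.92%). They summed to 1762, 462, 288 and 744 TPM in females 1 to 4 and to 641, 3414, 1704 and 2808 TPM in males 1 to 4, so the groups overlapped. The part of microglial RNA in the differences was not tested beyond leaving out mice, as given below. The 6 astrocyte markers summed to 111 to 340.2 TPM in females and 282 to 538 TPM in males, the 6 markers of the oligodendrocyte lineage to 359 to 1411 and 521 to 1326 TPM, with all 6 of either list at a lower fitted level in females (median log2 fold changes of -0.79 and -0.87), and the 4 endothelial markers to 15.0 to 47.5 and 14.9 to 46.9 TPM, with 3 of the 4 lower. The 8 neuron markers summed to 2743 to 3634 TPM in females and 2297 to 2908 TPM in males, all 8 with a higher fitted level in females. Of the 8, 0 passed edgeR's adjusted p of 0.05 (0.158% of all genes tested did), 3 were under an unadjusted p of 0.05 (20.5%) and 3 passed in DESeq2 (6.92%). *Sst*, *Gad1*, *Gad2* and *Slc32a1*, the identity genes of the sorted cells, summed to 1350.2 to 2553 TPM in females and 1241 to 1693 TPM in males.

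The mean log2 CPM of the 8 neuron markers was 0.28 higher in females. When that mean was added to the fit as a covariate (an alternative added with the data known), the log2 fold change was 1.10 for *Nrgn*, 0.75 for *Pde1a*, 1.36 for *Pde1c*, 0.36 for *Ppp3ca*, 0.26 for *Pde1b*, 0.08 for *Camk2d*, 0.05 for *Camk2a*, 0.02 for *Camk2b*, 0.02 for *Camk4* and -0.48 for *Pcp4*. *Nrgn* alone then passed the adjusted p of 0.05. The covariate is itself correlated with sex in these 8 mice, and how far neuronal RNA content had a part in the differences was not tested beyond this fit. Without female 1 and male 2, the mouse of each sex with the most microglial RNA, 2 of the 10 genes, *Nrgn* and *Pde1a*, were past the threshold.

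**Figure D4:**
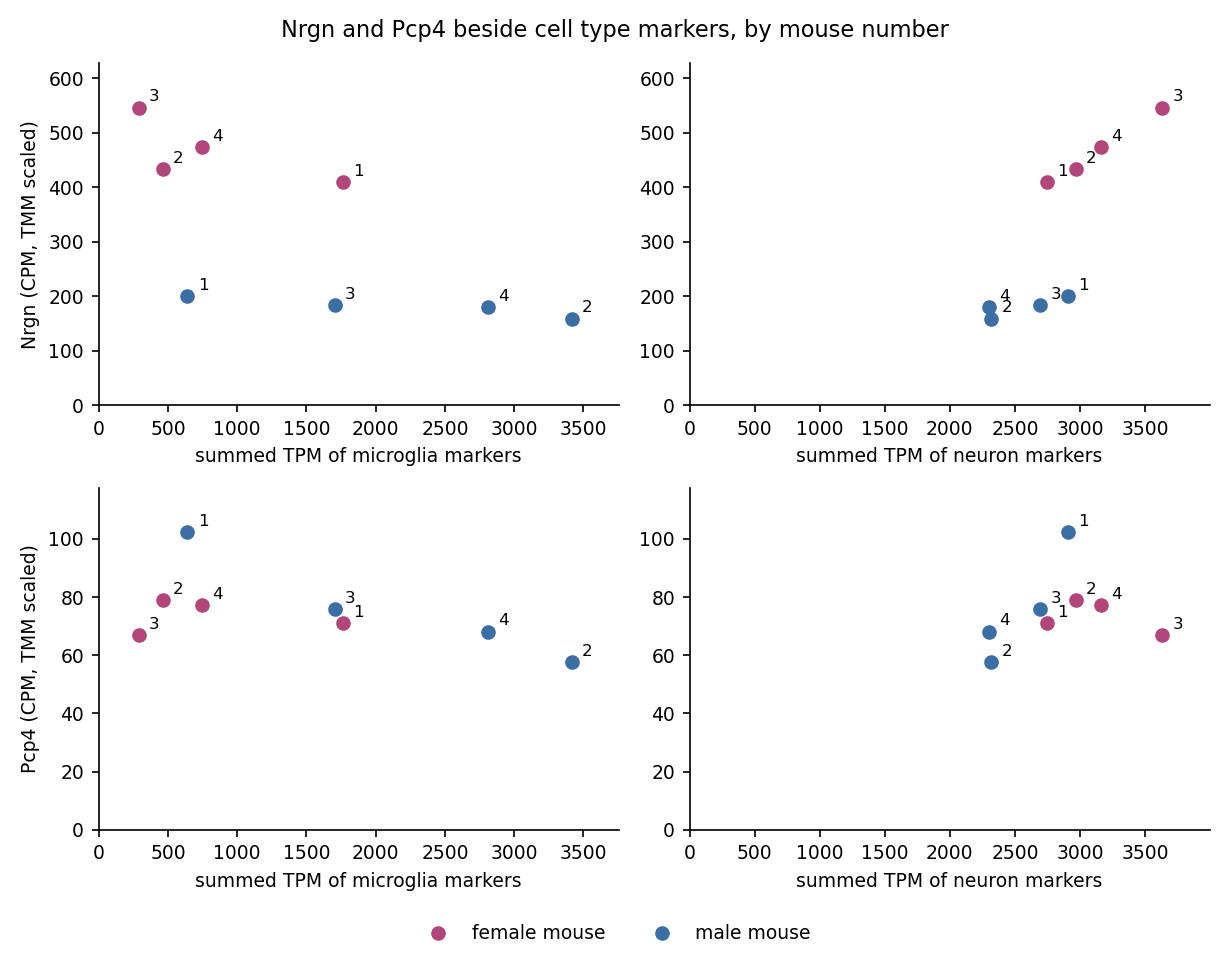
CPM of *Nrgn* (top) and *Pcp4* (bottom) in each mouse against the summed TPM of 7 microglial markers (left) and 8 neuron markers (right), all axes from 0, with the number of each mouse beside its point. The microglial sums run from 288 to 1762 TPM in females and from 641 to 3414 TPM in males, and *Nrgn* from 409.9 to 546 CPM in females and from 159 to 200.3 CPM in males.

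Neurons of other nuclei and of the striatum were checked in the same way. The 7 markers of ventromedial nucleus neurons summed to 562 to 751 TPM in females and 323 to 461 TPM in males, without overlap, and 6 of the 7 had a higher fitted level in females. *Dlk1* contributed most to that sum, with a mean of 260 TPM, and overlapped singly, with male 1 at 282.5 and female 1 at 265.5 TPM. *Nr5a1* was the lowest of the 7, with a mean of 2.32 TPM, and overlapped as well, as did *Adcyap1* and *Bdnf*. *Slc17a6*, *Fezf1* and *Gda* did not overlap, with every female above every male. The lowest female and the highest male were at 100.4 and 95.3 TPM for *Slc17a6*, 17.6 and 16.6 TPM for *Fezf1*, and 100.5 and 84.2 TPM for *Gda*. The 6 markers of striatal projection neurons summed to 121 to 222 TPM in females and 76.7 to 106 TPM in males, also without overlap, and 4 of the 5 that could be tested had a higher fitted level in females. *Rgs9* contributed most, with a mean of 61.0 TPM, and overlapped singly, with male 1 at 60.6 and female 1 at 59.9 TPM. *Drd1* also overlapped and was lowest in female 1, at 3.81 TPM, while *Ppp1r1b* did not overlap. The 6 arcuate nucleus markers summed to 320.1 to 1089 and 749.9 to 1608 TPM, a sum to which *Npy* contributed most, while 3 of the 6 had a higher and 3 a lower fitted level in females. Of these 3 lists 0 genes passed edgeR's adjusted p of 0.05, while 2, 4 and 4 were under an unadjusted p of 0.05 and 1, 2 and 2 passed in DESeq2. The shares over all genes tested were 0.158%, 20.5% and 6.92%. The part of such neurons in the levels of the 10 genes was not tested.

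Transcripts were then compared within genes, from the estimated counts of single transcripts, again as a description. Nrgn-201 held 99.4% of the counts of *Nrgn* and Pcp4-201 98.8% of those of *Pcp4*, so each of these genes is in effect 1 transcript. *Pde1a* was spread over 4 transcripts. The coding Pde1a-208 was at 40.8, 35.3, 48.8 and 49.4 CPM in females 1 to 4, against 19.4, 17.1, 23.5 and 17.2 CPM in males 1 to 4, with no overlap and a female mean 2.26 times the male mean. Pde1a-206 (37.3 ± 16.6 and 15.1 ± 8.66 CPM, SD, n = 4) and Pde1a-210 (47.2 ± 24.8 and 23.7 ± 13.9 CPM), which is annotated as a target of nonsense-mediated decay, overlapped between the sexes, as did Pde1a-204. Their shares varied widely between mice, that of Pde1a-206 from 3.53% to 45.3%, while Pde1a-208 kept 24.6% to 32.8%.

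**Figure D5:**
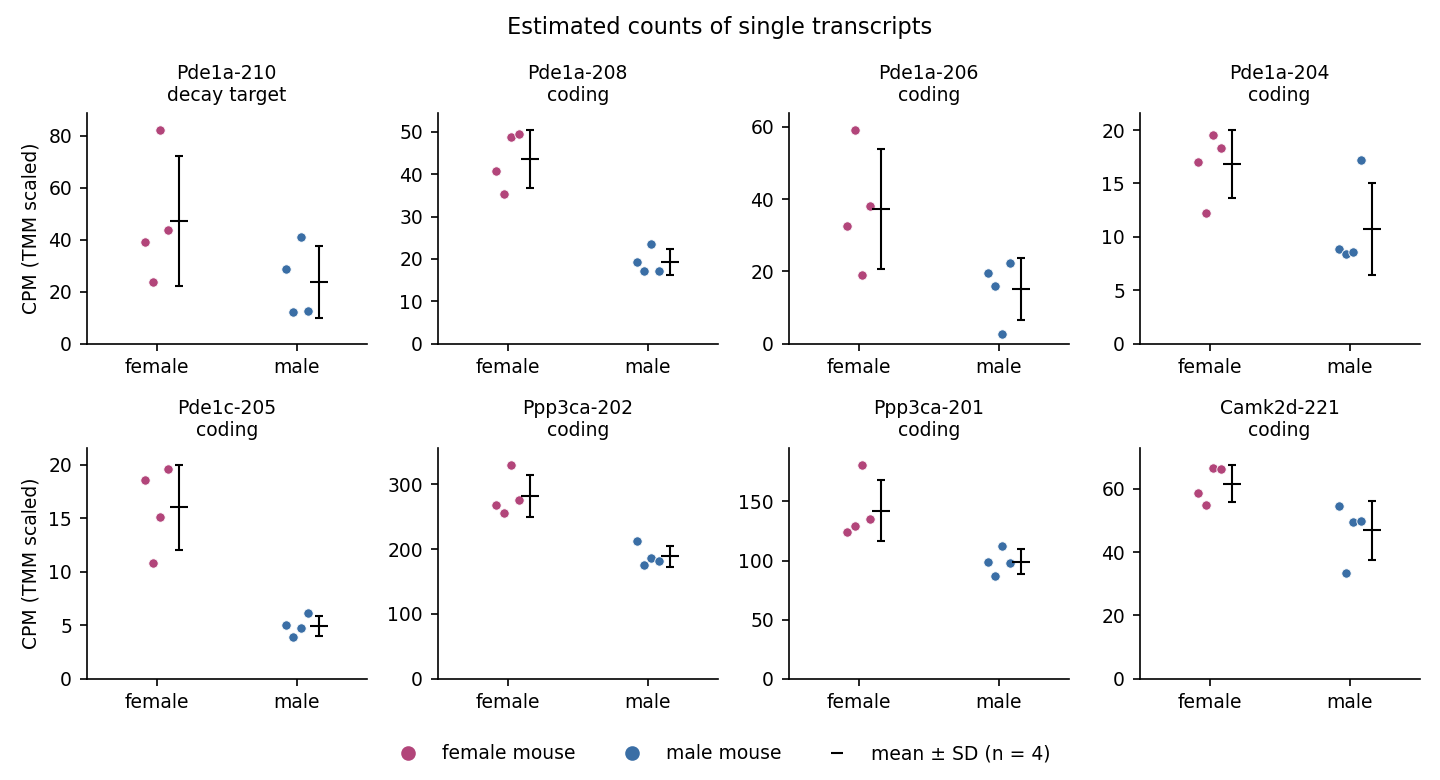
CPM of 8 single transcripts in each mouse, with points for mice and bars for the mean ± SD of 4 mice of a sex, each panel from 0. Females lie above males without overlap in Pde1a-208, Pde1c-205, Ppp3ca-202, Ppp3ca-201 and, narrowly (54.8 against 54.6 CPM), Camk2d-221. They overlap males in the other 3 *Pde1a* transcripts.

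Pde1c-205, which held the largest share of the *Pde1c* counts (40.0%), was at 18.6, 10.8, 15.1 and 19.6 CPM in the females, against 5.08, 3.90, 4.71 and 6.12 CPM in the males, a female mean 3.24 times the male mean. Both main transcripts of *Ppp3ca* had higher means in females, Ppp3ca-202 with 282 ± 32.5 and 189 ± 16.1 CPM and Ppp3ca-201 with 142 ± 25.9 and 99.1 ± 10.4 CPM (SD, n = 4). In *Camk2d* the means of coding transcripts went in different directions. Camk2d-221 had means of 61.6 ± 5.80 and 46.8 ± 9.24 CPM, females first. Every female was higher, though narrowly, with the lowest female at 54.8 and the highest male at 54.6 CPM. Camk2d-228 had 12.6 ± 1.10 and 15.9 ± 1.14 CPM, with every female lower. That gap was narrow too, with the highest female at 14.3 and the lowest male at 14.6 CPM. The counts of *Camk4* were divided mainly between the coding Camk4-201 (48.1% on average) and Camk4-204 (45.2%), another annotated target of decay. In female 1, however, Camk4-203, also annotated as a target of decay, held 50.4% and Camk4-204 5.73%, while the other mice had no counts of Camk4-203.

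Each mouse came with 2 blocks of values for the same transcripts, whose origin is not given in the sources used here, and the blocks were compared. For 62 of the 80 pairs of gene and mouse the 95% exact binomial interval of the gene's split between blocks held the split of all counts of that mouse, with 3 of 8 mice for *Pcp4* and 4 of 8 for *Ppp3ca*. For all 10 genes the SD between mice of a sex on the log2 scale was larger than that between blocks, by 1.06 times for *Camk4* to 4.602 times for *Camk2b*, with 3.12 times for *Nrgn*. Both blocks gave the same direction for 9 of the 10 genes. *Nrgn* had a log2 fold change of 1.32 in the first and 1.40 in the second, and *Pde1a* 1.04 and 1.11, whereas *Camk4* had 0.51 and 0.19 and *Pcp4* -0.11 and 0.01.

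Other genes of the pathway were taken from 8 lists by role, 50 genes that are not among the 10 described above, and all 50 were tested. After adjustment over all 15194 genes, 1 passed edgeR's test, *Nos1*, which encodes the calmodulin-activated neuronal nitric oxide synthase: it averaged 141 ± 16.9 in the females and 82.5 ± 10.9 CPM in the males (SD, n = 4), for a log2 fold change of 0.77 (SE 0.12) with adjusted p = 0.0494 by edgeR's quasi-likelihood test, and every female above every male. Its adjusted p lay between 2.23e-06 and 0.260 over the alternatives, and in 12 of 18 it was no longer under 0.05. Its list, the calmodulin-regulated cyclases and nitric oxide synthase, had 4 genes. Of these 1 passed edgeR's test, 3 were under an unadjusted p of 0.05 and 2 passed in DESeq2. The log2 fold change was 0.63 for *Adcy1* (adjusted p = 0.0831 by edgeR), 0.19 for *Adcy3* and -0.14 for *Adcy8*. Over all genes tested, 0.158% passed edgeR's test in either direction, 20.5% were under an unadjusted p of 0.05 in edgeR and 6.92% passed in DESeq2. The counts of each list, here and below, stand beside these shares. Of the 50 genes 34 had a log2 fold change above 0, beside 49.4% of all genes tested, with a median of 0.21, while 23 were under an unadjusted p of 0.05 and 14 passed in DESeq2. These lists were drawn up with results of these mice known, so the counts are no independent evidence.

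For calmodulin itself, 0 of the 3 genes passed edgeR's test, 2 were under an unadjusted p of 0.05 and 2 passed in DESeq2. *Calm3* had 723 ± 33.2 and 623 ± 32.7 CPM in females and males (adjusted p = 0.154 by edgeR) and *Calm2*, the highest at 2778 TPM, had 1019 ± 62.5 and 843 ± 85.6 CPM (adjusted p = 0.159 by edgeR). Among 5 other small calmodulin-binding proteins 0 passed, 3 were under an unadjusted p of 0.05 and 2 passed in DESeq2. *Marcksl1* had 191 ± 16.9 and 255 ± 29.6 CPM (adjusted p = 0.0930 by edgeR) and *Basp1* 362 ± 25.6 and 348 ± 15.3 CPM (adjusted p = 0.692 by edgeR). *Pcp4l1*, whose IQ stretch is printed beside those of *Nrgn* and *Pcp4*, had a log2 fold change of 0.83 (adjusted p = 0.105 by edgeR).

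Of 8 further calmodulin-dependent kinases and activators 0 passed, 1 was under an unadjusted p of 0.05 and 1 passed in DESeq2. *Camkk1*, an activating kinase, had a log2 fold change of 0.44 (adjusted p = 0.120 by edgeR) and *Camk2g*, the gamma subunit, 0.21 (adjusted p = 0.247 by edgeR), which was -0.05 with the neuron covariate. The next list held the inhibitor genes *Camk2n1* and *Camk2n2*, the pseudokinase gene *Camkv* and the kinase gene *Pnck*. Of these 4 genes 0 passed, 2 were under an unadjusted p of 0.05 and 2 passed in DESeq2. The log2 fold change was 0.56 for the CaMKII inhibitor *Camk2n1* (adjusted p = 0.0897 by edgeR) and 0.51 for *Camkv* (adjusted p = 0.1003 by edgeR). All 4 had values above 0. Of 8 calcineurin subunits and regulators 0 passed, 4 were under an unadjusted p of 0.05 and 2 passed in DESeq2. *Akap5*, which anchors calcineurin at the membrane, averaged 82.8 ± 15.1 in the females and 46.2 ± 12.4 CPM in the males (adjusted p = 0.0940 by edgeR), and *Ppp3r1*, the regulatory subunit, 424 ± 47.0 and 329 ± 30.9 CPM (adjusted p = 0.116 by edgeR).

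The 11 transcription regulators on which calcineurin and the kinases act were the single list with a median log2 fold change under 0, at -0.26, with 8 of the 11 under 0. None, 0 of 11, passed edgeR's test (0.158% of all genes tested did), 4 were under an unadjusted p of 0.05 (20.5%) and 2 passed in DESeq2 (6.92%). *Mef2d* had a log2 fold change of 0.27 (adjusted p = 0.115 by edgeR). *Nfatc1*, singled out after its values were seen, averaged 8.62 ± 4.95 in the females and 23.4 ± 13.3 CPM in the males (adjusted p = 0.184 by edgeR). The microglial markers given above also had lower fitted levels in females, and any part of microglial RNA in this list was not tested. Of 7 phosphodiesterase genes outside the *Pde1* family all 7 had values above 0, 0 passed, 4 were under an unadjusted p of 0.05 and 1 passed in DESeq2, with 0.51 for *Pde4a* (adjusted p = 0.139 by edgeR) and 0.22 for *Pde4b* (adjusted p = 0.274 by edgeR).

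The genes most like *Nrgn* over the 8 mice were found by Pearson correlation of log2 CPM, given as a description. The 5 highest were *Robo3* (r = 0.989), *Pde1a* (0.987), *Hpca* (0.986), *Kcnq5* (0.985) and *Sh3gl2* (0.981). Within sexes, after subtracting each sex's mean, the same r were 0.818, 0.923, 0.701, 0.785 and 0.627. *Robo3* lay at the limit of detection in males, with 1 to 6 counts per male beside 18 to 73 per female, so its r rests on values near the floor. The points share the difference between the sexes, the library and its share of neuronal RNA. *Hpca* encodes the calcium sensor hippocalcin and averaged 75.7 ± 6.72 in the females and 37.9 ± 3.57 CPM in the males. For *Pde1a* the 5 were *Slc24a3*, *Bmpr2*, *Nrgn*, *Pcsk2* and *Spock1*, with r from 0.984 to 0.987 and from 0.911 to 0.940 within sexes. *Ppp3ca* ranked 13 for *Nrgn* (r = 0.976) and 15 for *Pde1a* (r = 0.978), and *Pcp4* was the least like either of them among the 10 genes, with r of 0.05 and 0.13. Within sexes this order did not hold: for *Nrgn* r was 0.426 with *Pcp4*, 0.282 with *Camk2d* and 0.291 with *Pde1c*, and for *Pde1a* 0.508, 0.397 and 0.488.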

How the data were processed

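TN SST neurons, sorted by tdTomato from 4 females and 4 males that carried *Sst-Cre*, were sequenced by the authors as 1 library per mouse, with a stranded total RNA kit per the labels. The authors assigned reads to mm10 transcripts with kallisto 0.46.2 and deposited estimated counts, which need not be whole and are not normalized, and TPM. Effective lengths, another column the authors deposited, served for the length offset. The strand setting is not given in the sources used here. Each table held 2 blocks of the same 118489 transcripts, an arrangement no source used here explains, each with TPM summing to 1000000.

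Estimated counts of both blocks were summed, joined to genes with GENCODE M21 (1761 transcripts with 0.429% to 0.611% of a mouse's counts had no match) and rounded. TPM per gene is the mean over blocks. Sexes were compared with edgeR 4.0.16 and limma 3.58.1 in R 4.3.3 (TMM factors 0.841 to 1.16, filterByExpr by sex, sex the only term, quasi-likelihood F-test, threshold 0.05 on p adjusted by Benjamini and Hochberg). A standard error is the absolute log2 fold change divided by the square root of F. DESeq2 1.42.0 on the same genes was an alternative and is the tool the authors name. Log2 CPM for correlations used a prior count of 2. Exact tests, joins and plots used Python 3.11.15 with numpy 2.4.6, pandas 2.3.3, scipy 1.17.1 and matplotlib 3.10.9. The smallest p that 8 mice allow in the sign-flip test is 0.00781.

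The 10 genes, the role lists and the marker lists were chosen with earlier results of these data known. Named beside the 10 genes were, per role list, every gene past the threshold or else the gene with the smallest p and the gene with the highest TPM, and the 5 genes most like *Nrgn* and *Pde1a*. *Pcp4l1* was named for its motif, *Nfatc1* after its values were seen. Alternatives were DESeq2, RLE normalization, no filter, at least 10 counts in at least 4 mice, a replicate block, a length offset, each block of values alone, a pseudocount of 1, counts per kilobase, and leaving out each mouse. Those added after seeing the data were the neuron marker mean as a covariate or as the reference, leaving out the mouse of each sex with most microglial RNA, and coding transcripts alone. Depths were 7.83 to 17.6 per mouse in units of 1000000 estimated counts, which limits *Pde1c* and *Camk4* most.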

Additional observations from a re-analysis of the deposited data

Results flagged for a closer look

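In 40 groups of 4 mice (10 genes, 2 sexes, CPM and TPM), 5 held a mouse that lay far from the other 3 by Dixon's criterion. Chance gives about 1 in 20 for independent groups. These groups were not independent, since CPM and TPM of a gene come from the same reads, so the number cannot be set against that rate. Female 3, which had the deepest library, was high in 4 of the 5, with *Ppp3ca* flagged in both units. It had 331 TPM of *Camk2b* where the other females had 237 to 253, 105 CPM of *Pde1b* where they had 68.0 to 73.9, 530.5 CPM of *Ppp3ca* where they had 413 to 432, and 457 TPM of *Ppp3ca* where they had 315 to 334. Female 3 also had the lowest summed microglial markers, at 288 TPM, and the highest summed neuron markers, at 3634 TPM. Female 4 had 192 CPM of *Camk2d* where the other females had 160.4 to 163, and without it the log2 fold change of *Camk2d* was 0.05 in place of 0.12.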

How the results depend on the processing

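Over 19 alternatives per gene, the log2 fold change kept its sign for 8 of the 10 genes, the exceptions being *Pcp4* and *Camk2d*, which the report gives. The number of genes called over all 15194 moved from 24 to 1052 with DESeq2, 14 with the length offset, 3 with the neuron marker covariate, 62 without the mouse of each sex with most microglial RNA, and 8 to 415 with each mouse left out in turn (415 without female 1 and 411 without male 1). Of the 10 genes, 6 were called in place of 2 with DESeq2, 1 with the covariate, and 1 to 3 with each mouse left out. Of the 50 role list genes, 14 were called in place of 1 with DESeq2, 0 to 5 with each mouse left out (5 without male 1, 4 without female 1), and 0 in edgeR with RLE normalization, the length offset, the first or the second block of values alone, the covariate, or without the mice with most microglial RNA, where 24, 17, 20, 24, 4 and 20 were under an unadjusted p of 0.05. The share of 20.5% under an unadjusted p of 0.05 belongs to the fit with sex as the only term. For the alternative fits that share is not given, so nothing is read from their unadjusted counts. The cause of these moves in the number of genes called was not tested.

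With the replicate number as a block (replicate block), edgeR called 1 gene in all, 0 of the 10 and 0 of the 50, with 8 of the 10 and 20 of the 50 under an unadjusted p of 0.05. The share of all genes under that unadjusted p is not given for this fit, so nothing is read from these counts. Same-numbered females and males did not deviate together (correlations of their deviations -0.396, -0.156, 0.0356 and 0.0720), so the numbers are not taken to pair the mice.

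Depth limits *Pde1c*, with as few as 108 counts in a mouse, and *Camk4*, with as few as 152. The counts of single transcripts depend further on how kallisto divided reads.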
